A study of Saccharomyces cerevisiae with 27 samples.

Results

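The genes described here encode 52 proteins that build the small (40S) ribosomal subunit of budding yeast: the subunits and enzymes of the small subunit processome and the factors that act on the 40S precursor after it. They were taken by gene symbol from the platform's annotation, and each of the 52 symbols matched exactly 1 probe set, out of 5716 probe sets tested, of which 5498 carry 1 gene symbol. The genes lie on 14 of the 16 nuclear chromosomes.

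The processome is a large particle that forms on the newly transcribed ribosomal RNA precursor, guided by the U3 small nucleolar RNA, and it folds, modifies and cuts that RNA into the precursor of 18S rRNA. Its parts join roughly in the order of transcription, starting with the UTP-A (also called t-Utp) and UTP-B complexes on the leading spacer. Later factors accompany the 40S precursor to the cytoplasm. In growing yeast, transcription of these genes as a group is known to follow growth and nutrient signals, and to fall when the general stress response is switched on.

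Expression was measured on Affymetrix arrays of RNA from 27 exponentially growing cultures, 3 for each of 9 groups, grown at 30 °C in rich medium with an amino acid mix. The groups of the later experiment date were the eco1-W216G mutant, a fob1 deletion and the wild type W303a. The groups of the earlier date were the eco1-W216G fob1 and eco1-W216G rad61 double mutants, the fob1 deletion again, the rad61 deletion, and strains labelled as an mcd1 mutant that expresses Rec8 from the Mcd1 promoter, with and without a fob1 mutation. Eco1 acetylates cohesin so that sister chromatids stay paired, Fob1 blocks replication forks in the ribosomal DNA, Rad61 (Wapl in other species) releases cohesin from chromatin, and Rec8 takes the place of the cohesin subunit Mcd1 in meiosis. The series design names the eco1 allele and the deletions, whereas the sample labels say only mutant, and the strains labelled with Rec8 are known from the sample labels alone. Each of the 8 genotypes is represented by 1 strain identifier, and the design text says that strains were grown in triplicate, so p-values measure the spread between cultures of 1 strain and not between isolates.

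Values are log2 intensity, and differences are log2 differences ± the standard error from 1 limma model of all 27 arrays, with n = 3 arrays in every group. A gene passed the test when its p, adjusted by Benjamini-Hochberg over all 5716 probe sets, was under 0.05. Mean ECO1 signal in the 3 groups with eco1-W216G was 4.61 to 4.92, against 7.85 in wild type, a low level for a strain in which the design names a point mutation. Mean FOB1 signal was 3.84 to 4.22 where fob1 was mutated, against 9.91 in wild type. Mean RAD61 signal was 3.77 and 3.93 where rad61 was deleted, against 7.24 in wild type. MCD1 was not near such floor levels in the strains labelled mcd1 mutant, at 11.01 with the fob1 mutation and 11.00 without it, against 11.34 in wild type. Mean REC8 signal was 5.89 in the strain labelled mcd1 fob1 with Rec8 and 5.70 in the strain labelled mcd1 with Rec8, while eco1-W216G, which carries no such construct by its label, had 5.66 and wild type 5.23. The strains labelled with Rec8 had the highest REC8 means of the 9 groups, with the earlier fob1 group at 5.32 and rad61 at 5.42. In the strain labelled mcd1 fob1 with Rec8 the SD of REC8 was 0.09, and in the earlier fob1 group 0.10. The label names expression of Rec8 from the promoter of MCD1, a gene that growing cells express. Whether these REC8 levels match that label was not tested. Where the probes lie within ECO1, MCD1 and REC8 was not checked. Both strains are therefore called by their labels throughout. Array medians ran from 1226.55 to 1276.5 intensity and correlations between arrays of a group from 0.986 to 0.998. In rad61 replicate 2 the genes of chromosome IX were higher than in the other arrays of its group, by a median of 0.82. In the later fob1 group the mean level of the 52 genes differed between arrays, at 0.01, -0.25 and 0.25 relative to the mean over all arrays. Results that rest on these arrays are given with and without them.

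Wild type had the highest mean of the 9 groups for 49 of the 52 genes, whereas it was the highest group for 23.0% of all probe sets. The other 3 genes, UTP10, UTP18 and ESF2, were highest in the strain labelled mcd1 fob1 with Rec8, which also came second for 30 genes. The lowest mean lay in eco1-W216G rad61 for 30 genes (12.5% of all probe sets) and in eco1-W216G for 21 (33.9% of all probe sets). RRP7, whose product belongs to the UTP-C complex, was the exception, being lowest in eco1-W216G fob1. For 13 genes all 3 wild-type arrays exceeded the other 24, which held for 4.65% of all probe sets. Wild type was run on the later date only, and whether the dates were normalized together is not given in the sources used here, so this order can hold a difference between dates.

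**Figure D1:**
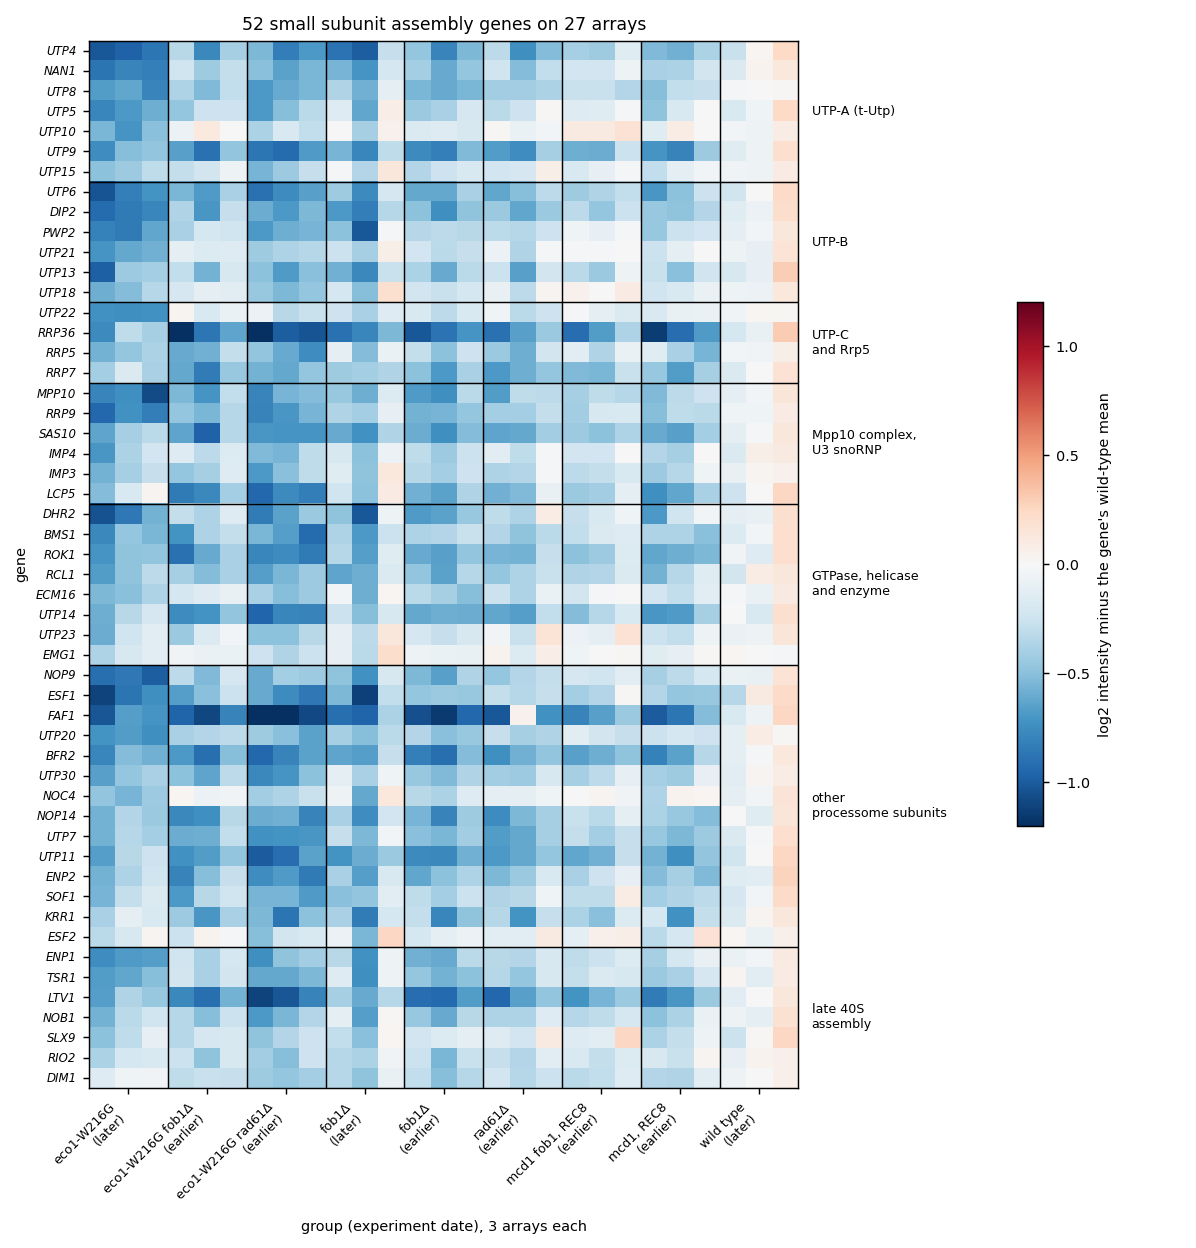
Each row is 1 of the 52 genes, grouped by role, and each column 1 of the 27 arrays, grouped by strain and date; the colour is the array's log2 intensity minus that gene's wild-type mean. Most cells outside wild type are below 0, and the lowest group mean is that of FAF1 in eco1-W216G rad61, at -1.27.

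Over the 52 genes, the median of the group mean minus the wild-type mean was -0.49 in eco1-W216G, -0.41 in eco1-W216G fob1, -0.60 in eco1-W216G rad61, -0.37 in the later fob1 group, -0.49 in the earlier fob1 group, -0.36 in rad61, -0.25 in the strain labelled mcd1 fob1 with Rec8 and -0.35 in the strain labelled mcd1 with Rec8. The same median over all probe sets lay between -0.05 and 0.02. For a single gene, the distance between its highest and lowest group mean ran from 0.29 to 1.27, with a median of 0.70, and the median pooled SD between arrays of a group was 0.17. Arrays of bulk cultures read relative mRNA abundance, so a lower level in every cell and in part of the cells cannot be told apart.

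**Figure D2:**
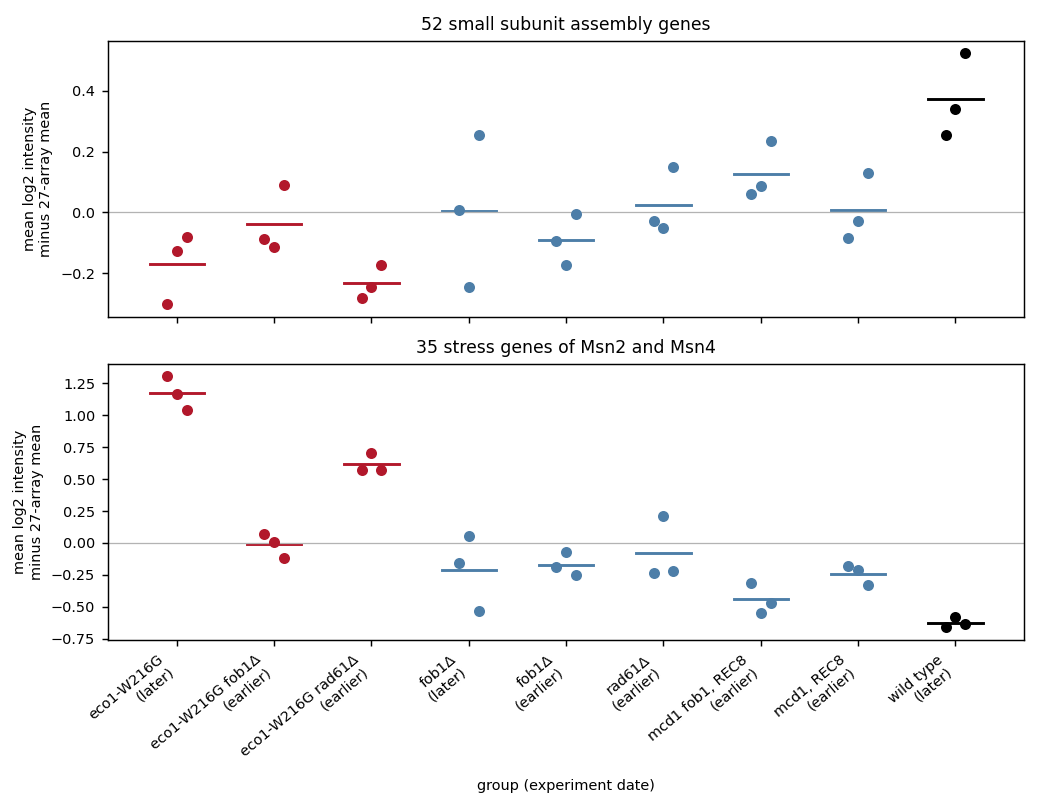
For each of the 27 arrays, the mean level of the 52 genes and the mean level of 35 general stress genes, in log2 intensity relative to the mean over all arrays, with a point for each array and a bar for the group mean. The 3 wild-type arrays have levels of the 52 genes from 0.25 to 0.52, at or above every other array, of which 1 later fob1 array also reaches 0.25; their stress gene levels, from -0.66 to -0.58, are the lowest; the eco1-W216G arrays have stress levels from 1.04 to 1.30.

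Of the comparisons within a date, eco1-W216G against wild type had the most of these genes past the test. In eco1-W216G, 47 of the 52 were lower and 0 higher, or 90.4% lower, against 30.0% of all probe sets lower and 23.7% higher. The median difference over the 52 genes was -0.49, a ratio of 0.712 in eco1-W216G over wild type, against a median of -0.05 over all probe sets. All 52 differences were below 0, from -0.95 to -0.08. The arrays of the groups did not overlap, with eco1-W216G lower, for 45 of the 52 genes, against 36.9% of all probe sets. Leaving out any 1 array left from 35 to 46 genes lower, and 35 genes passed under every alternative. The 12 that did not, EMG1, ENP2, IMP3, IMP4, NOB1, RIO2, RRP36, RRP7, SOF1, UTP11, UTP14 and UTP23, all missed the threshold without eco1-W216G replicate 1, with adjusted p from 0.064 (IMP4) to 0.282 (UTP23), and all but IMP3 and IMP4 also missed it without wild-type replicate 3.

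In eco1-W216G against wild type UTP-A and UTP-B, the complexes that join first, had the largest median differences. Single genes of different roles overlapped in size, and this order was not kept throughout. In the later fob1 group against wild type UTP-B had -0.49, UTP-A -0.35 and the other processome subunits -0.44. In eco1-W216G rad61 against rad61 UTP-A had -0.22, UTP-B -0.26 and the late factors -0.25. All 7 UTP-A genes fell in eco1-W216G, with a median of -0.68. UTP4 (YDR324C), a beta-propeller subunit of UTP-A, had 10.31, 10.35 and 10.45 log2 intensity in eco1-W216G, against 11.05, 11.35 and 11.56 in wild type. The groups did not overlap, and the difference of -0.95 ± 0.16 (adjusted p = 4.75e-05) was the largest of all 52 genes, a ratio of 0.518. UTP15 (YMR093W) changed least within UTP-A, with 11.44, 11.50 and 11.64 in eco1-W216G against 11.90, 11.88 and 12.03 in wild type, a difference of -0.41 ± 0.11 (adjusted p = 0.00297). NAN1 (also called UTP17) fell by 0.83, UTP8 by 0.70, UTP5 by 0.68, UTP10 by 0.59 and UTP9 by 0.58.

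All 6 UTP-B genes fell as well, with a median of -0.70. UTP6 (YDR449C) had 10.20, 10.41 and 10.52 in eco1-W216G and 11.00, 11.24 and 11.47 in wild type. Its arrays did not overlap, and it differed by -0.86 ± 0.14 (adjusted p = 2.68e-05). DIP2 (also called UTP12) fell by 0.85, PWP2 (also called UTP1) by 0.76, UTP21 by 0.63, UTP13 by 0.61 and UTP18 by 0.48, the smallest of the complex.

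Of the UTP-C complex and the long scaffold protein Rrp5, all 4 genes fell, with a median of -0.48. UTP22 (YGR090W) had 10.56, 10.56 and 10.57 in eco1-W216G, against 11.25, 11.32 and 11.30 in wild type, and differed by -0.73 ± 0.08 (adjusted p = 1.43e-07). The arrays of each group lay within 0.1 of each other. RRP36 fell by 0.49, RRP5 by 0.47 and RRP7 by 0.32, and the RRP7 arrays of the groups overlapped.

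Among the Mpp10 complex and proteins bound to U3 RNA, 5 of 6 genes fell, with a median of -0.44. MPP10 (YJR002W), the scaffold that carries Imp3 and Imp4, had 9.41, 9.47 and 9.13 in eco1-W216G and 10.09, 10.17 and 10.35 in wild type, a difference of -0.87 ± 0.14 (adjusted p = 1.74e-05). RRP9 (YPR137W), which binds U3 RNA itself, had 11.07, 11.28 and 11.18 in eco1-W216G and 11.96, 11.96 and 12.11 in wild type, and fell by 0.83. Neither gene's groups overlapped. SAS10 fell by 0.45, IMP4 by 0.44 and IMP3 by 0.41. LCP5 (YER127W), a processome subunit related to Sas10, had 10.95, 11.28 and 11.50 in eco1-W216G against 11.22, 11.47 and 11.71 in wild type. Its arrays overlapped, and the difference of -0.22 ± 0.17 did not pass the test (adjusted p = 0.276).

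All 8 genes of the group named for GTPases, helicases and enzymes fell, with a median of -0.48. Not every product in this group is an enzyme. DHR2 (YKL078W), a DEAH-box helicase, had 9.77, 9.96 and 10.25 in eco1-W216G, against 10.71, 10.73 and 11.01 in wild type, and differed by -0.82 ± 0.19 (adjusted p = 0.00107). BMS1, the processome GTPase, fell by 0.60 and its partner RCL1 by 0.49. ROK1, a DEAD-box helicase, fell by 0.56, ECM16, the helicase Dhr1 that removes U3 RNA, by 0.47, and UTP14, which activates Dhr1, by 0.37. UTP23 fell by 0.32 (adjusted p = 0.0485) and EMG1, an rRNA methyltransferase, by 0.23 (adjusted p = 0.0397).

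Of the 14 other processome subunits, 12 fell, with a median of -0.47. NOP9 (YJL010C), a Pumilio-like RNA-binding protein, had 9.79, 9.84 and 9.71 in eco1-W216G, against 10.62, 10.61 and 10.86 in wild type, a difference of -0.92 ± 0.11 (adjusted p = 6.44e-07). ESF1 (YDR365C), needed for 18S rRNA processing, had 8.85, 9.08 and 9.22 in eco1-W216G, against 9.62, 10.06 and 10.19 in wild type, a difference of -0.91 ± 0.17 (adjusted p = 0.000102). The arrays of neither gene overlapped. UTP20 (YBL004W), a large helical-repeat protein, had the smallest adjusted p of the 52 genes (1.7e-08) and differed by -0.71 ± 0.07. FAF1 fell by 0.80, BFR2 by 0.63, UTP30 by 0.50, NOC4 by 0.49 and its partner NOP14 by 0.46, UTP7 by 0.44, UTP11 by 0.42, ENP2 by 0.39 and SOF1 by 0.34. ESF2 (YNR054C) had 9.48, 9.61 and 9.83 in eco1-W216G, against 9.82, 9.72 and 9.86 in wild type, with overlapping arrays and a difference of -0.16 ± 0.15 (adjusted p = 0.387). KRR1 was the other subunit that did not pass, at -0.23 ± 0.17 (adjusted p = 0.26).

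The 7 factors of late 40S assembly had the smallest median difference, -0.38, and 5 of them fell. ENP1 (YBR247C), which stays on the particle from the nucleolus to the cytoplasm, had 10.81, 10.88 and 10.90 in eco1-W216G, against 11.48, 11.53 and 11.67 in wild type, a difference of -0.70 ± 0.12 (adjusted p = 6.8e-05). TSR1, which resembles a translational GTPase, fell by 0.60, LTV1 by 0.49, NOB1, the endonuclease that makes the end of mature 18S rRNA, by 0.38 and the kinase RIO2 by 0.26 (adjusted p = 0.0459). DIM1 (YPL266W), the dimethylase of 18S rRNA, had 11.90, 12.01 and 12.01 in eco1-W216G and 12.00, 12.06 and 12.11 in wild type. Its arrays overlapped and its difference, -0.08 ± 0.08 (adjusted p = 0.415), was the smallest of the 52. SLX9 differed by -0.30 ± 0.14 and did not pass either (adjusted p = 0.0826).

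**Figure D3:**
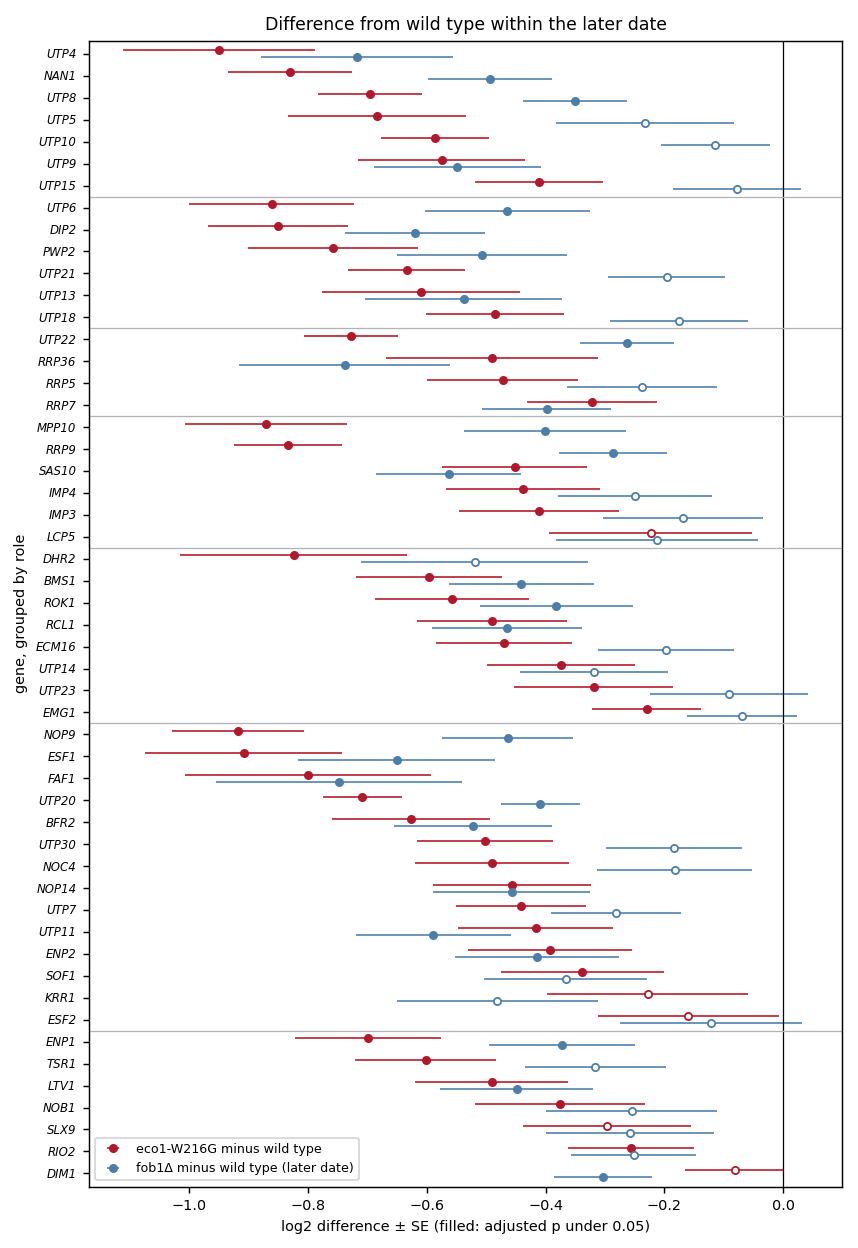
The log2 difference of each of the 52 genes, ± its standard error, in eco1-W216G against wild type (red) and in the later fob1 group against wild type (blue), ordered by role; filled points passed the test. All points lie below 0, 47 red and 28 blue points are filled, and the largest red difference is that of UTP4, at -0.95.

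Other genes that build ribosomes had similar values in the same comparison. Of 35 other genes of small subunit assembly, 23 were lower and 0 higher in eco1-W216G, with a median of -0.40; RRP12 had the largest difference (-0.74), followed by HAS1 (-0.66) and RIO1 (-0.65), while NOP6 and HRR25 stood at -0.01 and SQS1 at 0.09 without passing the test. Of 69 genes of 60S subunit assembly, 63 were lower and 0 higher, with a median of -0.50, close to that of the 52 genes. Among 10 regulators of ribosome biogenesis genes, 5 fell: TOD6 by 0.93, RAP1 by 0.87, FHL1 by 0.60, SFP1 by 0.47 and IFH1 by 0.31. Of these, Tod6 is a repressor and the others are activators or promoter-bound factors of ribosome genes. All 35 general stress genes of the factors Msn2 and Msn4 were higher, with a median of 1.69. Their part in the differences of the 52 genes was not tested.

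In the fob1 deletion of the later date, compared with wild type of that date, 28 of the 52 genes were lower and 0 higher, or 53.8% lower, against 6.91% of all probe sets lower and 8.73% higher. The median was -0.37, a ratio of 0.774, against 0.02 over all probe sets, and all 52 differences were below 0. For 25 genes the arrays did not overlap, with fob1 lower, against 13.9% of all probe sets. This result rests on single arrays. Without wild-type replicate 3 it was 4 genes, without wild-type replicate 2 it was 16, without fob1 replicate 1 it was 15 and without fob1 replicate 2, the array with the lowest levels, it was 7, with a median of -0.24. The count rose to 36 without fob1 replicate 3, and it was also 36 with replicate number as a block. Shares of all probe sets under these settings are not given. In a fit of only these 6 arrays 0 genes passed. That fit is 1 of the alternatives, so by it alone none of the 28 passed under every alternative.

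The genes with the largest differences were not all those of eco1-W216G. FAF1, needed for 18S rRNA formation, had 9.81, 9.75 and 10.33 in fob1, against 10.52, 10.65 and 10.96 in wild type, a difference of -0.75 ± 0.21 (adjusted p = 0.019). RRP36, of the UTP-C group in these lists, had 9.42, 9.53 and 9.78 in fob1, against 10.10, 10.22 and 10.62 in wild type, a difference of -0.74 ± 0.18 (adjusted p = 0.0103). UTP4 had 10.43, 10.33 and 11.04 in fob1, against 11.05, 11.35 and 11.56 in wild type, a difference of -0.72 ± 0.16 (adjusted p = 0.00715). In all 3 the arrays did not overlap, though for UTP4 fob1 replicate 3 lay just under the lowest wild-type array. UTP20 had the smallest adjusted p here too (0.00116), with 11.73, 11.62 and 11.81 in fob1 and 12.02, 12.22 and 12.15 in wild type. The wild-type arrays are those also set against eco1-W216G, so these comparisons with wild type are not independent of each other. By role, 4 of 7 UTP-A genes, 4 of 6 UTP-B genes, 8 of 14 other subunits and 3 genes of each of the remaining roles passed. UTP10 and UTP15, both of UTP-A, stood at -0.11 ± 0.09 and -0.08 ± 0.11 and did not pass. The stress genes were higher in 14 of 35 cases and lower in 0, with a median of 0.39, and their part in this result was not tested.

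Set directly against the later fob1 group, eco1-W216G had 15 of the 52 genes lower, or 28.8%, against 23.5% of all probe sets lower, and 1 gene higher, against 17.9% of all probe sets higher. The median was -0.21, and it stood at -0.06 without fob1 replicate 3, -0.10 without eco1-W216G replicate 1 and -0.33 without fob1 replicate 2. Arrays of the same replicate number deviated together here too, and with replicate number as a block 21 genes were lower and 3 higher, against 25.9% of all probe sets lower and 19.2% higher. RRP9 differed by -0.55 ± 0.09 (adjusted p = 5.87e-05), with 11.07, 11.28 and 11.18 in eco1-W216G against 11.65, 11.60 and 11.92 in fob1, without overlap, while UTP22 and UTP10 each differed by -0.47. UTP10 (YJL109C) had 11.00, 10.84 and 11.05 in eco1-W216G, against 11.55, 11.15 and 11.60 in fob1, also without overlap. The others that fell without the block were UTP5, UTP8, UTP15 and NAN1 of UTP-A, UTP6, UTP18 and UTP21 of UTP-B, MPP10, UTP20, UTP30, NOP9 and ENP1. The gene that was higher without the block was DIM1, with 11.90, 12.01 and 12.01 in eco1-W216G, against 11.72, 11.57 and 11.97 in fob1, a difference of 0.22 ± 0.08 (adjusted p = 0.0372) with overlapping arrays. With the block DIM1 passed as well (adjusted p = 0.0131), beside RRP36 at 0.25 (adjusted p = 0.0155) and UTP11 at 0.17 (adjusted p = 0.049). Without the block, DIM1 no longer passed without fob1 replicate 2 (0.13, adjusted p = 0.203), without fob1 replicate 1 (0.20, adjusted p = 0.104), or without eco1-W216G replicate 2 or 3 (0.20 in both, adjusted p = 0.103 and 0.101). The total of 16 moved to 27 without fob1 replicate 2, 9 without fob1 replicate 1, 8 without fob1 replicate 3 and 10 without eco1-W216G replicate 1. This comparison shares its eco1-W216G arrays with the one against wild type and was added after the data were seen.

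Within the earlier date, the question was what eco1-W216G changes in a strain that already lacks FOB1. In eco1-W216G fob1 against fob1, 0 of the 52 genes passed the limma test, 1 had an unadjusted p under 0.05, and 0.787% of all probe sets passed, with 637 of them at an unadjusted p under 0.05. The count was also 0 under every alternative. The median was 0.05 and the differences ran from -0.15 to 0.32, with 36 of 52 above 0. DHR2 had the largest value, with 10.53, 10.44 and 10.66 in eco1-W216G fob1 against 10.13, 10.18 and 10.36 in fob1, a difference of 0.32 ± 0.19 (adjusted p = 0.596) without overlap. ECM16 (YMR128W) had 10.47, 10.53 and 10.58 in eco1-W216G fob1 against 10.35, 10.28 and 10.16 in fob1, a difference of 0.26 ± 0.11 (adjusted p = 0.39). NOC4 (YPR144C) had 11.77, 11.67 and 11.71 in eco1-W216G fob1 against 11.42, 11.37 and 11.60 in fob1, a difference of 0.26 ± 0.13 (adjusted p = 0.479). The arrays did not overlap, with the double mutant higher, for 8 of the 52 genes, against 11.2% of all probe sets. None of the 35 stress genes passed in this comparison, with a median of 0.16.

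In eco1-W216G rad61 against rad61, 51 of 52 differences were below 0, with a median of -0.26, and 2 genes were lower with 0 higher, or 3.85% lower, against 1.54% of all probe sets lower and 5.18% higher. A further 23 genes had an unadjusted p under 0.05, making 25 of the 52, against 1323 of all 5716 probe sets. The arrays did not overlap, with the double mutant lower, for 31 genes, against 10.8% of all probe sets. Arrays of the same replicate number deviated together here, and with replicate number as a block 21 genes were lower, against 4.11% of all probe sets. They were UTP5, UTP9, UTP15, UTP6, UTP18, RRP36, RRP9, IMP4, LCP5, EMG1, DHR2, ROK1, UTP14, UTP23, UTP11, UTP30, SOF1, ENP2, FAF1, SLX9 and LTV1, so that every role had at least 1. The count was 5 without rad61 replicate 2, 1 without rad61 replicate 1 or eco1-W216G rad61 replicate 3, and 0 without rad61 replicate 3, eco1-W216G rad61 replicate 1 or eco1-W216G rad61 replicate 2. Stress genes were higher in 26 of 35 cases and lower in 0, with a median of 0.67, and their part was not tested.

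The 2 genes that passed were RRP9 and FAF1. RRP9 had 11.21, 11.32 and 11.46 in eco1-W216G rad61, against 11.60, 11.61 and 11.72 in rad61, a difference of -0.32 ± 0.09 (adjusted p = 0.0356) without overlap. FAF1 (YIL019W) had 9.18, 9.51 and 9.63 in eco1-W216G rad61, against 9.69, 10.76 and 9.98 in rad61, a difference of -0.70 ± 0.21 (adjusted p = 0.043). The high rad61 value is that of replicate 2, and FAF1 lies on chromosome IX, which was higher in that array. Without it FAF1 stood at -0.40 and did not pass (adjusted p = 0.167), while RRP9 stood at -0.34 and passed (adjusted p = 0.0411). LCP5 had 10.52, 10.70 and 10.64 in eco1-W216G rad61, against 10.89, 10.93 and 11.38 in rad61, a difference of -0.45 ± 0.17 (adjusted p = 0.121). DHR2 had 9.98, 10.18 and 10.37 in eco1-W216G rad61, against 10.51, 10.44 and 10.90 in rad61, a difference of -0.44 ± 0.19 (adjusted p = 0.168). Neither gene's groups overlapped.

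**Figure D4:**
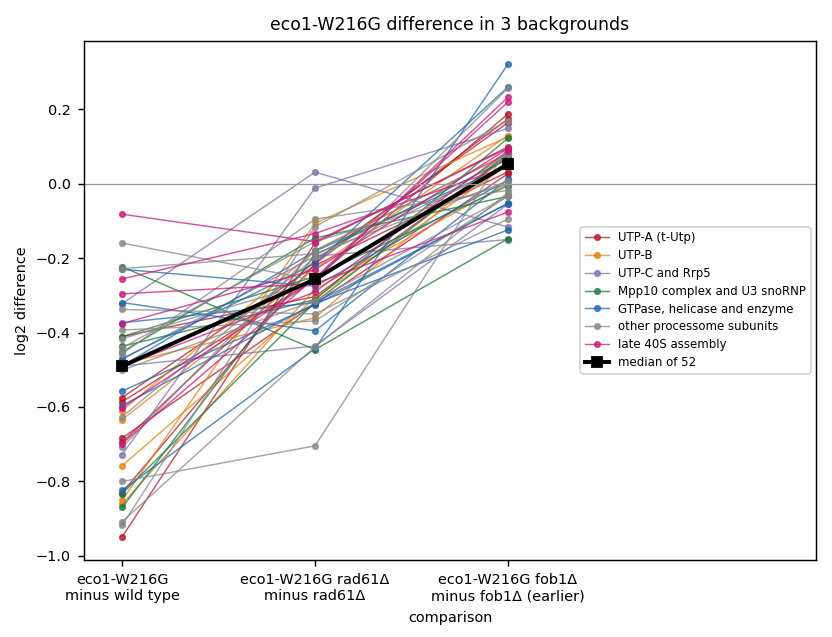
The log2 difference that eco1-W216G made in each of the 52 genes in an otherwise wild-type strain, in the rad61 deletion and in the fob1 deletion, with a line for each gene and the median in black. The medians are -0.49 in the otherwise wild-type strain, -0.26 in rad61 and 0.05 in fob1. The first is from the later date and the others are from the earlier date.

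The difference between these eco1-W216G effects was tested in the same model, as the effect in the deletion strain minus the effect in the otherwise wild-type strain. For fob1, 34 of the 52 genes had a positive difference that passed, or 65.4%, and 0 a negative one, against 21.2% of all probe sets positive and 18.0% negative. The median was 0.56, against 0.05 over all probe sets, and all 52 values were above 0, from 0.08 to 1.15. All 7 UTP-A genes (median 0.77) and all 6 UTP-B genes (median 0.79) passed. Of the remaining roles, 9 of 14 other subunits, 5 of 8 genes of the enzyme group and 3 of 6 of the Mpp10 and U3 group passed. So did 3 of 7 late factors and 1 of 4 of the UTP-C group, UTP22. The largest values were those of DHR2 at 1.15 ± 0.27 (adjusted p = 0.00211), NOP9 at 1.09 ± 0.16 (adjusted p = 1.77e-05) and UTP4 at 1.05 ± 0.23 (adjusted p = 0.00109). LCP5 (0.08 ± 0.24) had the smallest. The same term was negative and passed for all 35 stress genes, with a median of -1.55.

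For NOP9 the arrays behind this value were 9.79, 9.84 and 9.71 in eco1-W216G against 10.62, 10.61 and 10.86 in wild type, and 10.38, 10.17 and 10.50 in eco1-W216G fob1 against 10.16, 10.05 and 10.34 in fob1. The first pair of groups did not overlap and the second pair did. For UTP4 the double mutant had 10.98, 10.55 and 10.92, against 10.86, 10.53 and 10.78 in the earlier fob1 group, again with overlap. The levels of the fob1 pair, measured on the other date, lay between those of eco1-W216G and wild type for both genes. This comparison takes the eco1-W216G effects within a date each, so a constant shift between dates cancels, but the effects themselves come from different dates.

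For rad61, 11 of the 52 genes passed with a positive difference, or 21.2%, and 0 with a negative one, against 11.8% of all probe sets positive and 11.6% negative. The median was 0.28. They were UTP4, UTP8 and NAN1 of UTP-A, DIP2, UTP6 and UTP21 of UTP-B, UTP22, MPP10, RRP9, UTP20 and NOP9. NOP9 had the largest value, 0.80 ± 0.16 (adjusted p = 0.000948), with 10.09, 10.29 and 10.26 in eco1-W216G rad61, against 10.23, 10.34 and 10.41 in rad61. UTP22 had 11.22, 10.96 and 11.03 in eco1-W216G rad61, against 11.24, 10.97 and 11.04 in rad61, overlapping throughout, so that its difference between the eco1-W216G effects was 0.72 ± 0.11 (adjusted p = 0.000121). Leaving out any 1 array left from 8 to 12 genes, and all but UTP4, UTP6 and UTP21 passed under every alternative. UTP4 missed the threshold without wild-type replicate 3 (adjusted p = 0.0524), where UTP6 (adjusted p = 0.114) and UTP21 (adjusted p = 0.116) missed it too. The same term was negative and passed for 23 of the 35 stress genes, with a median of -0.89. These eco1-W216G effects come from different dates too, the one in rad61 from the earlier and the one against wild type from the later. The fob1 and rad61 terms both subtract that effect against wild type, so they are not independent of each other.

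**Figure D5:**
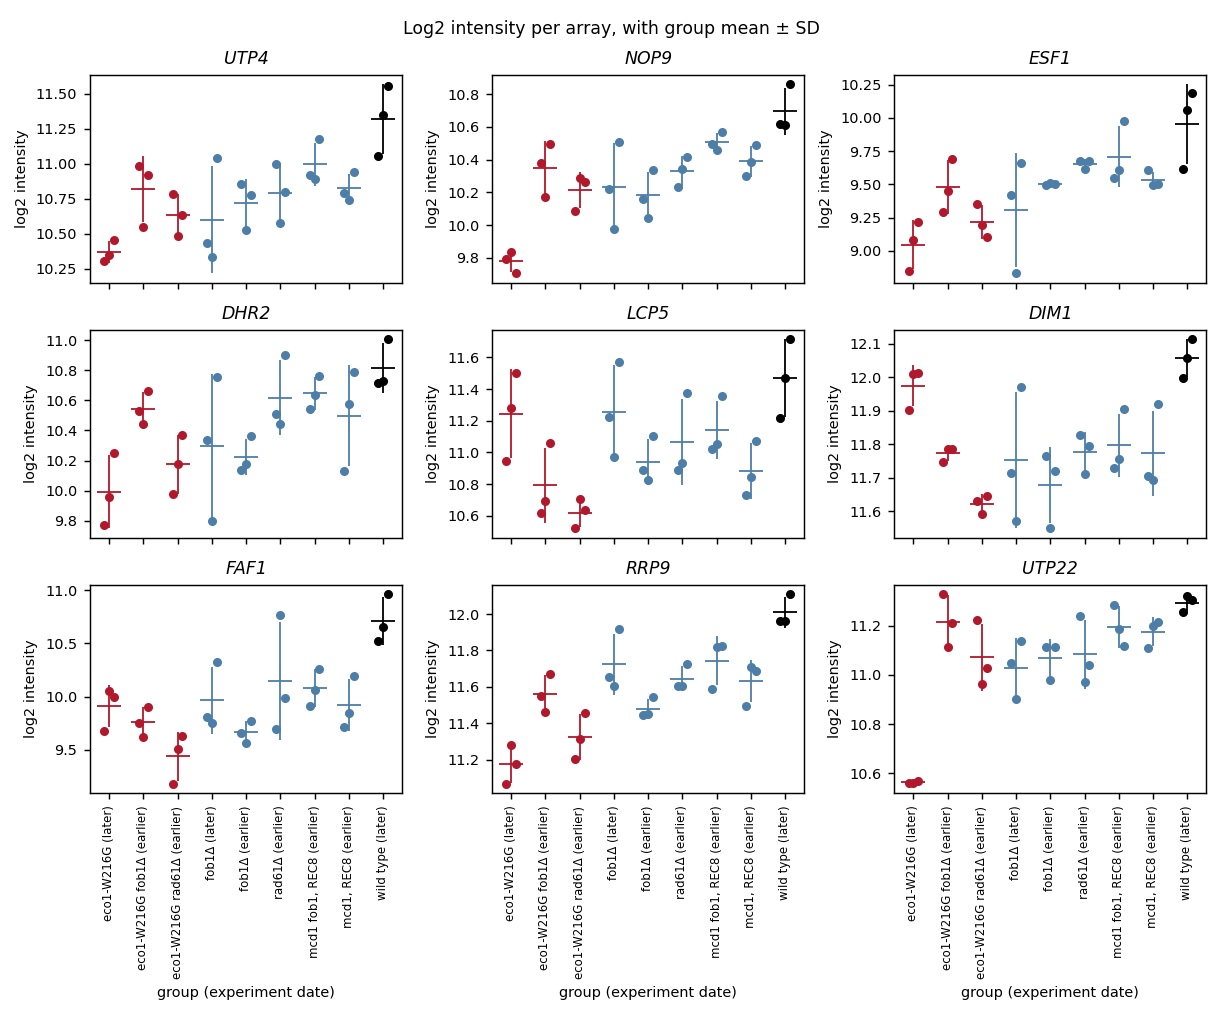
Log2 intensity of UTP4, NOP9, ESF1, DHR2, LCP5, DIM1, FAF1, RRP9 and UTP22 in each array of the 9 groups, with the mean ± SD (n = 3) of each group; red marks the groups with eco1-W216G, blue the other mutants and black wild type. UTP22 lies between 10.56 and 10.57 in eco1-W216G and at or above 10.90 in every other array, and FAF1 has 1 high rad61 array, at 10.76.

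Comparing a double mutant with eco1-W216G, or any earlier strain with wild type, crosses the dates, so these contrasts subtract the difference between the later and earlier fob1 groups. Between those fob1 groups themselves 0 of 52 genes passed by limma, against 4.81% of all probe sets. An unadjusted p under 0.05 was found for 5 of the 52, against 1194 of all 5716 probe sets. The median of later minus earlier was 0.10. Its direction rests on single arrays: without fob1 replicate 2 of the later date 3 genes were higher and the median was 0.23, and without replicate 3 of that date 1 gene was lower and the median was -0.02. With replicate number as a block 4 genes were higher.

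In eco1-W216G fob1 against eco1-W216G, 13 of the 52 genes were higher and 0 lower, or 25.0% higher, against 14.9% of all probe sets higher and 11.7% lower, with a median of 0.22. UTP10 differed by 0.66 ± 0.13 (adjusted p = 0.000851), with 11.48, 11.67 and 11.54 in eco1-W216G fob1 against 11.00, 10.84 and 11.05 in eco1-W216G. RRP9 differed by 0.63 ± 0.13, NOP9 by 0.62 ± 0.16 and UTP22 by 0.61 ± 0.11. UTP8, UTP20, UTP21, NAN1, MPP10, NOC4, ECM16, ENP1 and TSR1 were the others. The count moved to 8 without replicate 1 or 3 of the later fob1 group and to 21 without its replicate 2. The median moved to 0.07 without replicate 3 of that group, 0.37 without its replicate 2 and 0.11 without eco1-W216G replicate 1. In eco1-W216G rad61 against eco1-W216G, UTP22 alone was higher, by 0.47 ± 0.11 (adjusted p = 0.0114), against 5.25% of all probe sets higher and 4.27% lower, and 0 were lower; the median was -0.01. Without replicate 2 of the later fob1 group 10 genes were higher and the median was 0.15, and without its replicate 3 the median was -0.12 with 1 gene higher and 1 lower. The count was 3 without eco1-W216G rad61 replicate 1 and 2 without replicate 3 of the earlier fob1 group, all higher. With replicate number as a block 3 were higher and 2 lower.

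Against wild type, eco1-W216G rad61 had 24 of the 52 genes lower and 0 higher, or 46.2% lower, against 5.55% of all probe sets lower and 10.7% higher, and the median was -0.50. RRP36 differed by -0.97 ± 0.25 (adjusted p = 0.0127), with 9.04, 9.32 and 9.28 in eco1-W216G rad61 against 10.10, 10.22 and 10.62 in wild type. ESF1 differed by -0.94 ± 0.23 (adjusted p = 0.0101) and BMS1 by -0.82 ± 0.17 (adjusted p = 0.00307). The count was 9 without wild-type replicate 3 or without replicate 2 of the later fob1 group, 38 without its replicate 3, 10 without replicate 3 and 14 without replicate 1 of the earlier fob1 group, and 15 without eco1-W216G rad61 replicate 1. Without the date term it was 51, and the share of all probe sets under that setting is not given.

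In eco1-W216G fob1, rad61 and the strain labelled mcd1 with Rec8, no gene of the 52 passed against wild type, though most differences were below 0. The strain labelled mcd1 fob1 with Rec8 was not tested against wild type. In eco1-W216G fob1 the median was -0.33, with 49 of 52 below 0, and 1.77% of all probe sets passed. An unadjusted p under 0.05 by limma was found for 22 of the 52, against 1173 of all 5716 probe sets. In rad61 the median was -0.26, with 48 below 0, and 0.315% of all probe sets passed. There 15 of the 52 had an unadjusted p under 0.05, against 931 of all 5716 probe sets. In the strain labelled mcd1 with Rec8 the median was -0.26, with 49 below 0, and 0.0700% of all probe sets passed. There 14 of the 52 had an unadjusted p under 0.05, against 916 of all 5716 probe sets. Without replicate 3 of the later fob1 group the counts were 10 in eco1-W216G fob1, 5 in rad61 and 4 in the strain labelled mcd1 with Rec8. For eco1-W216G fob1 the count was also 4 without its own replicate 3 and 3 without wild-type replicate 1. With replicate number as a block the counts were 13 in eco1-W216G fob1, 5 in rad61 and 5 in the strain labelled mcd1 with Rec8. With the date as a random block they were 19, 8 and 5 for the same strains, and without a date term 32, 28 and 27, all lower. How many of all probe sets passed under these settings is not given. A change over the whole array therefore cannot be told apart from one of the 52 genes in these counts. Without replicate 2 of the later fob1 group the medians were -0.21 in eco1-W216G fob1, -0.16 in rad61 and -0.14 in the strain labelled mcd1 with Rec8. All 3 comparisons share the wild-type and fob1 arrays, so their values are not independent of each other.

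Among the strains of the earlier date without eco1-W216G, rad61 and the strain labelled mcd1 fob1 with Rec8 were each tested against fob1. Other pairs of these strains were not tested. In rad61 against fob1, 0 genes passed by limma, against 0.0350% of all probe sets, and the median was 0.11. An unadjusted p under 0.05 was found for 1 of the 52, against 279 of all 5716 probe sets. FAF1 had the largest value there, 0.48 ± 0.21, and without rad61 replicate 2, the array with high chromosome IX genes, it stood at 0.17 (adjusted p = 0.998 by limma). In the strain labelled mcd1 fob1 with Rec8 against fob1, 0 genes passed, against 0.297% of all probe sets. All 52 differences were above 0, with a median of 0.22. An unadjusted p under 0.05 by limma was found for 14 genes, against 458 of all 5716 probe sets. For 27 genes the arrays did not overlap, with the strain labelled with Rec8 higher, against 11.3% of all probe sets. UTP20 had the smallest unadjusted p, with 12.00, 11.91 and 11.85 in the strain labelled mcd1 fob1 with Rec8 against 11.78, 11.63 and 11.68 in fob1, a difference of 0.23 ± 0.07 (adjusted p = 0.234).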

How the data were processed

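The authors deposited a linear intensity for each probe set. Per the submitters' processing notes, it was made with RMA, and R 2.15.2 was used. Whether the dates were normalized together is not given in the sources used here. Here log2 of the intensity was taken, and 51 control and 47 reporter probe sets of 5814 were left out, leaving 5716. The tests planned assumed log2 values. A single limma model (version 3.58.1, R 4.3.3) held the means of the 9 groups over 27 arrays, which left 18 residual degrees of freedom; tests were two-sided and Benjamini-Hochberg adjustment ran over all 5716 probe sets. Contrasts across dates subtract the difference between the later and earlier fob1 groups. The script was tested on simulated data.

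The members, lists and tests were chosen with earlier results of these data known. The 52 symbols all matched a probe set and an R64 gene name. Genes with values for each array are those with the 3 largest differences in the main comparisons and the 3 smallest in eco1-W216G against wild type, plus called exceptions and the largest of each role. The smallest of each role is named, with values for each array in some roles only. Others shown (RRP9, UTP20, UTP10, RRP36 and further examples), and UTP22 in further comparisons, were picked after their values were seen.

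Same-numbered arrays deviated together (every pair over 0.1) in 4 of 16 contrasts: eco1-W216G fob1 against fob1, eco1-W216G rad61 against rad61, rad61 against fob1, and eco1-W216G against fob1; the pairing comes from the data, as the labels give only a replicate number. Alternatives were this block, no date term, the date as a random block, a fit of only the arrays compared, a filter on dim probe sets, quantile normalization repeated, median centring, a trended and robust prior, each array left out, and rad61 replicate 2 with later fob1 replicate 2 left out. An array gives no depth; the number of arrays limits precision. Sequences are not analysed here.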

Additional observations from a re-analysis of the deposited data

Results flagged for a closer look

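The eco1-W216G effect differed between strain backgrounds by a test of the difference itself, taken as the effect in the deletion strain minus that in the otherwise wild-type strain. The effects in the deletion strains come from the earlier date and the effect in the otherwise wild-type strain from the later. A difference between backgrounds and one between dates in the eco1-W216G effect therefore cannot be told apart. With fob1, 34 of the 52 genes differed, all with a positive difference, and the 3 largest were DHR2 at 1.15, NOP9 at 1.09 and UTP4 at 1.05. The rad61 term subtracts the same difference between eco1-W216G and wild type, so the terms share those arrays and are not independent. With rad61, 11 genes differed, all positive. Of UTP-A these were UTP4 at 0.79, UTP8 at 0.49 and NAN1 at 0.62. Of UTP-B they were UTP6 at 0.58, UTP21 at 0.41 and DIP2 at 0.74. The others were UTP20 at 0.53, UTP22 at 0.72, MPP10 at 0.68, RRP9 at 0.51 and NOP9 at 0.80. The stress genes moved the opposite way in both terms, with medians of -1.55 for fob1 and -0.89 for rad61, and their part was not tested.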

How the results depend on the processing

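Counts are genes of the 52 that passed the limma test. Shares of all probe sets under the alternatives are not given, so these counts cannot be set against the whole array. The exceptions are the replicate block counts for eco1-W216G rad61 against rad61 and eco1-W216G against fob1, whose shares stand in Results. For eco1-W216G against wild type the alternatives other than leaving out 1 array gave 45 to 49 genes, and for its differences between backgrounds 34 to 42 (fob1) and 11 to 15 (rad61). Of the genes that passed, 35 of 47, 23 of 34 and 8 of 11 passed under every alternative.

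With replicate block the count was 21 for eco1-W216G rad61 against rad61 and 21 (20 higher, 1 lower) for eco1-W216G fob1 against eco1-W216G. It was 24 for eco1-W216G against fob1 (3 higher, 21 lower). It was 13 for eco1-W216G fob1, 38 for eco1-W216G rad61, 5 for rad61 and 5 for the strain labelled mcd1 with Rec8, each against wild type. It was 5 for eco1-W216G rad61 against eco1-W216G (3 higher, 2 lower) and 4 for fob1 between dates. The block moved no other count by over 1.5 times.

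Without a date term, eco1-W216G fob1 against eco1-W216G had 24 (20 higher, 4 lower), eco1-W216G rad61 against eco1-W216G 12 (5 higher, 7 lower), and against wild type eco1-W216G fob1 had 32, eco1-W216G rad61 51, rad61 28 and the strain labelled mcd1 with Rec8 27. With the date as a random block the counts against wild type were 19, 44, 8 and 5 for the same strains, and eco1-W216G rad61 against eco1-W216G had 4 (3 higher, 1 lower). With only the arrays compared, fob1 against wild type had 0, eco1-W216G against fob1 7, eco1-W216G fob1 against eco1-W216G 8 and eco1-W216G rad61 against rad61 1. Repeated quantile normalization and the trended, robust prior each gave 2 for eco1-W216G rad61 against eco1-W216G.

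Without the pair of arrays that stand apart, an alternative chosen after seeing the data, fob1 against wild type had 9, eco1-W216G against fob1 28, eco1-W216G fob1 against eco1-W216G 21, eco1-W216G rad61 against eco1-W216G 10, against rad61 16 and against wild type 10, fob1 between dates 3, and the strain labelled mcd1 fob1 with Rec8 against fob1 2.

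Leaving out 1 array gave 35 to 46 for eco1-W216G against wild type, 4 to 36 for fob1 against wild type, 8 to 27 for eco1-W216G against fob1, 0 to 5 for eco1-W216G rad61 against rad61, 8 to 21 for eco1-W216G fob1 and 1 to 10 for eco1-W216G rad61 against eco1-W216G. Against wild type it gave 0 to 10 for eco1-W216G fob1, 9 to 38 for eco1-W216G rad61, 0 to 5 for rad61 and 0 to 4 for the strain labelled mcd1 with Rec8, and between fob1 dates 0 to 3 (3 higher without replicate 2 of the later date, 1 lower without its replicate 3). The causes of these shifts were not tested. Arrays have no depth. All 52 genes passed the filter on dim probe sets, which kept 4572.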

Other observations

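The array numbered replicate 3 had the highest mean level of the 52 genes in each of the 9 groups. Relative to the mean over all arrays, it stood at -0.08 in eco1-W216G, where replicates 1 and 2 stood at -0.30 and -0.13. In the later fob1 group it stood at 0.25, against 0.01 and -0.25 in replicates 1 and 2, and in wild type at 0.52, against 0.25 and 0.34. In the strain labelled mcd1 fob1 with Rec8 it stood at 0.23, against 0.06 and 0.09. What the replicate number marks is not given in the labels, and the cause was not tested. The fits with replicate number as a block, whose counts are given with the other alternatives, take such a shared shift out of the spread between arrays.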
